A study of Mus musculus with 3 samples.

Results

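The genes described here are 6 decidual and uterine genes, Prl8a2, Prl3c1, Prap1, Ctla2a, Ctla2b and Pgr, of the 18193 genes that have a probe set of their own on the array. They were listed as products of the maternal decidua and uterus, and the tissue that gave their signals in these pools was not measured. The genes were chosen by their signals, which were lower on the mutant arrays than on the normal array. The values of that contrast therefore describe them with no test. Their members are the 9 probe sets whose single gene symbol in the platform annotation is one of the 6 names, and Prap1 (2 probe sets) and Pgr (3 probe sets) were measured more than once. The samples were 3 RNA pools, each of whole embryos of 1 mixed-sex litter collected at 8.5 days post coitum (dpc) and each measured on 1 Affymetrix array. A single pool of 6 C57Bl/6J embryos made up the normal group. The mutant group was 2 pools, of 8 and 6 embryos, called biological replicates by the series, and these embryos were Dnmt3l-/+ on a C57Bl/6J background, from Dnmt3l-/- dams mated to wildtype sires. Dnmt3l works with the de novo DNA methyltransferases in the oocyte, where it is needed to set maternal imprints, and the series title calls the mutants maternal methylation-deficient. Maternal tissue in a mutant pool would carry the dam's genotype, Dnmt3l-/-, whereas the genotype of the normal dam is given only through the C57Bl/6J strain. The normal group is 1 litter's pool on 1 array, so normal litters have no measured spread, and a pooled array gives no value for single embryos.

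The decidua is the tissue that the stroma of the uterus forms around an implanted embryo under the hormone progesterone, which acts through the receptor that Pgr encodes. It is a maternal tissue and surrounds the conceptus, so a dissected embryo can carry some of it. In mice it secretes proteins of the prolactin family, and it lies beside the uterine epithelium and glands, which make secretions of their own. The embryo's own trophoblast, which becomes placenta, secretes other prolactin-family proteins from the same gene cluster.

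Of the 6 genes, 4 lie on chromosome 13 in the GRCm38.p6 gene table, in 2 clusters. Prl8a2 and Prl3c1 belong to the prolactin cluster, and Ctla2a and Ctla2b lie on both sides of Tpbpb, with Tpbpa and the placental cathepsins Ctsj and Ctsq next to Ctla2a. Ctla2a and Ctla2b are close copies, and 1 probe set on the array is annotated to both. The bases before their start sites are therefore shown, from RefSeq with build GRCm38.p6, as the 250 bases upstream of the first start listed for each gene on the minus strand (chr13:60936626-60936875 for Ctla2a and chr13:60897448-60897697 for Ctla2b). Capitals mark bases that differ from the other gene or are missing there in a global alignment; the ends that overhang the other window are in lower case.
Ctla2a: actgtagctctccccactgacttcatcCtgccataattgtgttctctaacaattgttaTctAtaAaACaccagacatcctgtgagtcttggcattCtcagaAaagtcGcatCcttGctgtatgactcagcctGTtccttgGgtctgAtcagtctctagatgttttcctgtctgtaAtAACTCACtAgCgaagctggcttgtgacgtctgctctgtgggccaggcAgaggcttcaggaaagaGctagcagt
Ctla2b: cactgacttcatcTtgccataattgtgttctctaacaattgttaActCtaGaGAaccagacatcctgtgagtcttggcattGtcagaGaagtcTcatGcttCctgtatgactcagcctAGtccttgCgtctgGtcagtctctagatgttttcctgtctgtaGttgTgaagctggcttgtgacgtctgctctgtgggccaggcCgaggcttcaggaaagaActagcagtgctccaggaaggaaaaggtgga
Of the 228 bases paired between these windows, 209 were identical (91.7%), with 19 mismatches and 8 gap bases. The hexamer TGTTCT, part of the element to which the progesterone receptor binds, searched on both strands, was found once in each of these 2 windows, inside a stretch that they share, and in 16.1% of the 32851 windows of the table. It was not found in the windows of Prap1 and Pgr or in either window of Prl3c1. The TATAAA hexamer, also searched on both strands, was found in the windows of Ctla2a and Pgr and in 12.4% of all windows. CpG is the dinucleotide that DNA methyltransferases act on. The window at the second Prl3c1 start held 1 CpG site. The window at the first start is shown because it held 0, as 7.9% of all windows did (chr13:27196410-27196659, plus strand).
Prl3c1: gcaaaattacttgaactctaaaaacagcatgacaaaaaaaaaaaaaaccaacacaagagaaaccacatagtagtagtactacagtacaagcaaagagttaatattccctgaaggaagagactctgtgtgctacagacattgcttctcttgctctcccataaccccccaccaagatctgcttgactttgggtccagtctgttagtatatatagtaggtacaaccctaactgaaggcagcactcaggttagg
Windows of Ctla2a, Ctla2b, Prap1 and Pgr at their first start sites held 3, 3, 2 and 4 CpG sites, against a median of 6 over all windows (quartiles 2 and 16). Methylation was not measured in these samples. The table gave windows for 5 of the 6 genes.

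Signals are linear array intensities. The dimmest part of the array is marked by the median over arrays of the 20th percentile of signal, 31.92, which was also the value added before taking logarithms. Log2 ratios compare log2(signal + 31.92) of a mutant array with the normal array and understate the difference of dim probe sets. A probe set was kept for tests where its mean log2 signal over the 2 groups reached the 40th percentile, which left 27022 of 45037, and 5 of the 9 probe sets of the decidual genes. Signals of different probe sets cannot be set against each other as amounts of RNA. In these whole pools, fewer cells of a type and less RNA per cell cannot be told apart.

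Among the secreted prolactin-family proteins, Prl8a2, the decidual prolactin-related protein, gave a signal of 1376 on the normal array, 91.2 on mutant array 1 and 111 on mutant array 2. The mutant arrays thus lay at 6.63% and 8.10% of the normal signal and close to each other. The log2 ratios were -3.52 and -3.30 (mean -3.41). By the less changed mutant array, Prl8a2 ranked 4 from the lowest of the 27022 kept probe sets. Its mutant signals stayed above 31.92, at the 41.4th and 44.2nd percentile of their arrays, against the 88.5th percentile on the normal array. Prl3c1, also known as prolactin-like protein J and made in the decidua, was dim everywhere. Its signals were 37.3 in the normal pool against 12.2 and 14.7 in the mutant pools, so only the normal signal was above 31.92, and the filter removed the probe set. Its log2 ratios of -0.65 and -0.57 are small because the added value is larger than both mutant signals.

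Prap1 encodes a proline-rich acidic protein secreted by epithelium, including that of the pregnant uterus. Its brighter probe set read 431 on the normal array, 20.5 on mutant array 1 and 57.7 on mutant array 2, with log2 ratios of -3.14 and -2.37. The mutant signals lay on either side of 31.92 and differed 2.81-fold from each other, so the size of this difference depends on the added value. The other Prap1 probe set read 17.8, 14.3 and 7.76 in the same order, below 31.92 on every array, and showed no comparable normal signal. The brighter probe set has the suffix that Affymetrix gives where probes may also match other sequences, and the annotation pairs it with no accession. The normal signal of Prap1 therefore rests on 1 of its 2 probe sets.

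Ctla2a and Ctla2b encode small proteins that resemble the inhibitory propeptide of cysteine cathepsins, and Ctla2a is an inhibitor of cathepsin L. Ctla2a read 1593 in the normal pool against 443 and 394 in the mutant pools, which lay at 27.8% and 24.8% of normal. Its log2 ratios were -1.78 and -1.93. Ctla2b read 284 in the normal pool against 183 and 151 in the mutant pools, a smaller difference, with log2 ratios of -0.56 and -0.79. The probe set annotated to both genes, which is no member by the rule, read 1058, 359 and 332, with log2 ratios of -1.48 and -1.58 that lay between those of the single genes. All 3 probe sets were brightest on the normal array. Because the genes are alike, transcripts of one may also bind to probes of the other, and the 3 readings are not independent.

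Pgr, the receptor on which decidualization depends, read 260 in the normal pool against 156 and 160 in the mutant pools by its brightest probe set. The mutant arrays differed by little, and the log2 ratios were -0.64 and -0.60. The other Pgr probe sets did not repeat the order. The first read 27.7, 31.4 and 47.7, higher in both mutant arrays, and the second read 7.50, 4.93 and 8.18, below 31.92 on every array. With the 9 probe sets taken singly, 7 read lower in both mutant arrays.

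**Figure D1:**
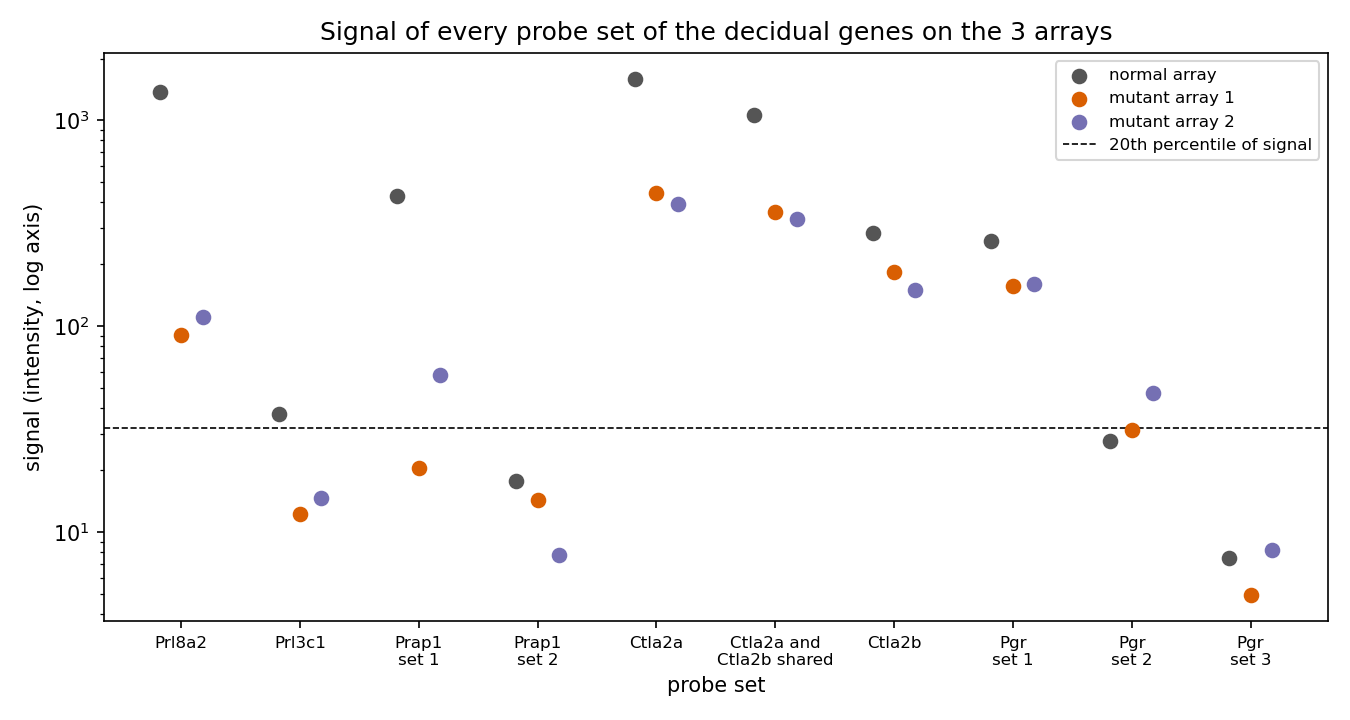
Signal on a log axis of each probe set of the decidual genes, and of the 1 probe set shared by Ctla2a and Ctla2b, on the normal array and on mutant arrays 1 and 2; each point is 1 array and the dashed line is 31.92. Prl8a2, the brighter Prap1 probe set and Ctla2a stand apart on the normal array, whereas 4 of the 9 single-gene probe sets were too dim to be kept.

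By brightest probe set, 3 of the 6 genes (Prl8a2, Prap1 and Ctla2a) read lower by 2-fold or more on each mutant array on the log2(signal + 31.92) scale, where 0.589% of the 12913 genes with a kept probe set did and 3.29% read higher by as much. All 6 read lower in both, where 38.7% of those genes did and 37.0% read higher in both. The choice of the genes fixed these counts, and nothing is read from them. These 3 genes had the larger differences, and the others, Ctla2b, Pgr and Prl3c1, had mean log2 ratios from -0.67 to -0.61. The median over the 6 genes was -1.26, against -0.01 over the 12913 genes. The mutant arrays differed by a median of 0.24 on the log2 scale over all kept probe sets and by 1 or more in 4.58% of them. Among the brightest probe sets of the 6 genes, the mutant arrays differed by 0.77 for Prap1 and by 0.23 or less for the others.

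**Figure D2:**
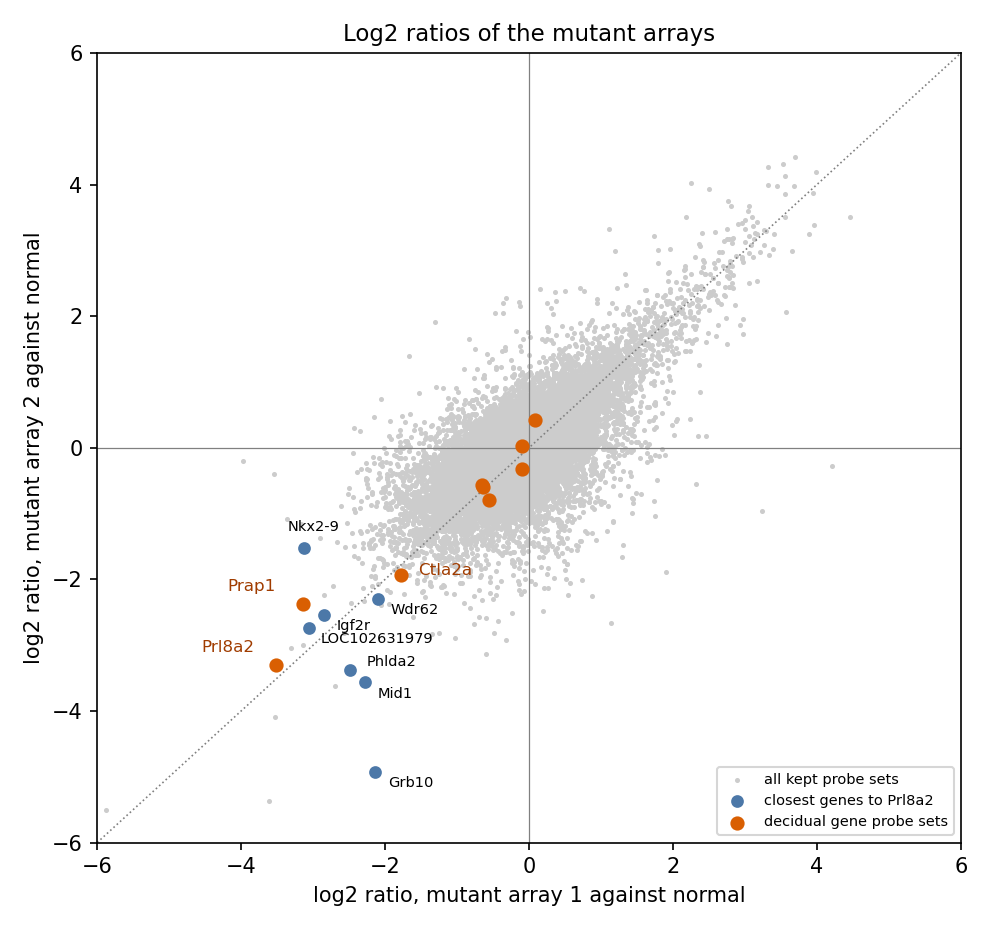
Log2 ratio of mutant array 1 (x axis) and mutant array 2 (y axis) against the normal array for 27022 kept probe sets (grey), the 9 probe sets of the decidual genes (orange) and the closest genes to Prl8a2 (blue); the dotted line marks equal ratios. Prl8a2 lies near the dotted line at -3.52 and -3.30, and 3 genes with kept probe sets, Prl8a2, Prap1 and Ctla2a, lie beyond -1 on both axes.

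The genes closest to Prl8a2 over the 3 arrays were taken by Euclidean distance between log2 signals centred on the normal array. The nearest was LOC102631979, which read 899, 79.5 and 108 (distance 0.72). Prap1 came next (1.00), and then Igf2r, which encodes a receptor for insulin-like growth factor 2 (2515, 322 and 405, distance 1.01). Phlda2, a regulator of placental growth, lay at 1.04 and Mid1, a ubiquitin ligase gene, at 1.26. Wdr62 (1.73), Nkx2-9 (1.82) and Grb10 (2.14) completed the 8 closest. With 3 arrays such likeness rests on 2 ratios a gene.

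Other genes of the decidual stroma, on a list that leaves out the 6 genes, read lower and higher in similar numbers. Of 29 measured, 24 were kept, 11 read lower and 9 higher in both mutant arrays, and the remaining 4 had mixed signs. Over the kept genes the median was -0.09 on the log2 scale (-0.11 in mutant array 1 and 0.02 in mutant array 2), and with no dim probe set filtered out it was 0.24. None passed limma with Benjamini-Hochberg adjustment over all kept probe sets, where 0.0310% of the 12913 genes were called lower and 0.751% higher. At an unadjusted limma p under 0.05, 2 were higher and 1 lower. The lower one was Fst (994 against 626 and 617, log2 ratio -0.65, limma adjusted p = 0.335), with -0.72 as the mean of its 2 kept probe sets. By brightest probe set, no gene of the list was lower by 2-fold or more in both mutant pools, and 2 were higher by as much. These were Cebpb, a transcription factor needed for decidualization (231 against 762 and 753, log2 ratio 1.59, SE 0.25, limma adjusted p = 0.0885), and Tdo2, which degrades tryptophan (219 against 603 and 490, log2 ratio 1.20). Tdo2 gave 0.47 as the mean of its kept probe sets, which differed in sign. Nr2f2 (1366 against 665 and 1243, log2 ratio -0.57) gave -0.97 as the mean of its 5 kept probe sets. The same arrays had higher signals of yolk sac endoderm genes (median log2 ratio 2.80), and their part in these values was not tested.

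Several genes of this list are central to the decidual response and were bright enough to compare. Bmp2, the growth factor that drives decidualization, read 576 in the normal pool against 530 and 403 in the mutant pools. Hoxa10, a homeobox gene that the stroma needs, read 260 against 188 and 177. Hand2, a target of the progesterone receptor in stroma, read 1240 against 1115 and 1089, and Wnt4 read 210 against 237 and 350. The matrix proteoglycan gene Lum read 444 against 749 and 2530, so its mean log2 ratio of 1.57 (SE 0.67) rested mainly on mutant array 2. The embryo also expresses many of these genes. Erv3 had the largest lower value of the list in the less changed array (164 against 81.3 and 86.8, log2 ratio -0.76, limma adjusted p = 0.421).

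In the uterine epithelium and gland list, 18 genes were measured and 10 kept, with a median log2 ratio of -0.0037 and 3 genes in each direction; the sign of that median turned between settings. Limma called 1 gene higher and 0 lower, with 2 higher and 1 lower at an unadjusted p under 0.05. The gene called was Ttr, a carrier of thyroid hormone and retinol that is also on the yolk sac list (5888 against 20443 and 18964, log2 ratio 1.74, adjusted p = 0.0185). This call and all other limma calls given here were lost where no dim probe set was filtered out, or where the variances were not fitted to intensity; both settings left 0 probe sets called. Wfdc2, a secreted protease inhibitor of epithelia, read 1495 against 940 and 840 (log2 ratio -0.73, limma adjusted p = 0.275). Msx1, a homeobox gene, had a log2 ratio of -0.64, and -0.19 as the mean of its 2 kept probe sets, which differed in sign. Ihh, the signal by which the epithelium relays progesterone to the stroma, had 1.03, and neither gene passed. Olfm1 had a log2 ratio of -0.33, and -0.65 as the mean of its 3 kept probe sets. Acod1, induced by progesterone in the epithelium at implantation, was below 31.92 on every array. Lif, the cytokine of implantation, was dim as well (57.4, 22.9 and 28.8), and Ltf, an estrogen-induced secretion, read 117, 127 and 107. Msln, also removed by the filter, read 60.7 against 8.38 and 5.62, with log2 ratios of -1.20 and -1.30. Over all 18 measured genes, 6 read lower and 7 higher in both mutant arrays.

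Targets and coactivators of the progesterone receptor, some of which are also on the preceding lists, gave no call. Of 18 measured, 16 were kept, with 7 lower and 5 higher in both mutant arrays and a median log2 ratio of -0.17. Limma called 0 genes, and 2 were higher and 0 lower at an unadjusted p under 0.05. Fkbp5, a chaperone partner of steroid receptors, read 1875 against 1354 and 1840. The largest lower value in the less changed array belonged to Cyp26a1, which clears retinoic acid (1160 against 858 and 630, log2 ratio -0.64, limma adjusted p = 0.404). Gata2, a transcription factor, read 497 against 1017 and 905 (log2 ratio 0.91). Ncoa3 had 0.47, with 0.05 as the mean of its kept probe sets, which differed in sign. By that mean, Gata2 had 1.01. Fkbp4 went from -0.29 to -0.60 and Nr2f2 from -0.57 to -0.97.

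The rest of the prolactin family was dim in these pools. Of 26 genes listed, which include the receptor Prlr and the related growth hormone gene Gh, 17 were measured and 4 kept. Over the 17, the median signal was 62.0 in the normal pool against 36.8 and 49.3 in the mutant pools, and the highest normal signal was 169. None reached a normal signal like that of the Prl8a2 probe set, although probe sets differ in brightness for the same amount of RNA. Of the 17, 12 read lower and 4 higher in both mutant arrays, but 13 of the 17 were too dim to be kept. Among the 12913 genes with a kept probe set, 38.7% read lower and 37.0% higher in both. Over the 4 kept genes the median was -0.40 on the log2 scale, and limma called 0 of them, with 0 at an unadjusted p under 0.05. Prl2a1 read 169 against 117 and 81.0, Prl7b1 124 against 40.8 and 114, Prl7c1 121 against 103 and 97.6, and Gh 68.8 against 153 and 141. The nearest measured neighbours of Prl8a2 on the chromosome, Prl6a1 (26.3, 36.8 and 38.6) and Prl2b1 (44.8, 26.8 and 32.5), did not show its normal signal. Trophoblast hormones of the family that had no probe set of their own were not analysed here.

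Near Ctla2a, the neighbours differed among themselves. Tpbpa, a marker of the spongiotrophoblast, read 180 in the normal pool against 32.8 and 23.3 in the mutant pools, with log2 ratios of -1.71 and -1.94, and the filter removed it. Its neighbour Tpbpb read 124, 105 and 155. Ctsj (26.5, 15.2 and 9.16) and Ctsq (11.4, 9.07 and 32.2) were dim.

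Cathepsins, the family of proteases that the Ctla2 proteins resemble in part, were split between bright genes that read higher and dim genes that mostly did not. Of 18 measured, 8 read lower and 7 higher in both mutant arrays, and the median log2 ratio was -0.03. The filter kept 6 of them, which all read higher in both mutant arrays (median 1.70), and limma called 5 of these higher. Among the genes it removed, Ctss, the cathepsin of antigen-presenting cells, read 74.8 against 10.3 and 21.6. Cathepsin L (Ctsl), the protease that Ctla2a inhibits, rose from 6068 to 13235 and 13988 (log2 ratio 1.16, SE 0.14, adjusted p = 0.0498). The kept probe sets of Ctsl differed in sign, however, and their mean was 0.32. Cathepsin C (Ctsc) rose from 743 to 6155 and 7755 (log2 ratio 3.16, SE 0.21, adjusted p = 0.0137). Cathepsins H, B and Z rose by log2 ratios of 2.80, 1.89 and 1.52. Ctsl is also on the yolk sac list, whose median log2 ratio was 2.80, and the part of yolk sac tissue in the cathepsin values was not tested.

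Markers of other maternal cells were dim for natural killer cells, mixed for adult blood and immune cells, and mostly lower in the mutant pools for myometrium and smooth muscle. Of the 16 uterine natural killer cell genes measured, 1 was kept, Prf1, which encodes perforin (110 against 98.1 and 122). The 16 genes had a median signal of 56.7 in the normal pool against 31.0 and 32.7 in the mutant pools, and 8 read lower and 2 higher in both mutant arrays. Among the 12913 genes with a kept probe set, 38.7% read lower and 37.0% higher in both, but 15 of the 16 were not kept. Summed, the signals of the 16 genes came to 840 against 613 and 626. Among the granzymes, Gzmd read 48.3 in the normal pool against 0.302 and 0.971 in the mutant pools, and Gzmf read 70.5, 32.2 and 18.8, all removed by the filter. Of 15 adult blood and immune cell genes, 8 were kept with a median log2 ratio of 0.02, and limma called 0 of them, also at an unadjusted p under 0.05. The class II histocompatibility genes of this list were mixed. H2-Eb1 read 150 against 54.1 and 89.7, H2-Aa 145 against 88.6 and 94.3, and H2-Ab1 289 against 319 and 394. The macrophage gene Adgre1 read 202 against 247 and 247, and Ighm, an antibody chain gene, was the brightest of the list at 498 against 588 and 502. Of 10 myometrium and smooth muscle genes, 7 were kept. Beside the same 38.7% and 37.0% over all genes, 6 of the 7 read lower and 1 higher in both mutant arrays (median log2 ratio -0.29). Limma called 0 of these, with 1 higher and 1 lower at an unadjusted p under 0.05, and the embryo's own muscle expresses many of them. Smtn, a gene of contractile smooth muscle, read higher, at 317 against 570 and 520 (log2 ratio 0.72, limma adjusted p = 0.330). Tagln read 1277 against 742 and 840, Des, the muscle filament gene desmin, 329 against 97.7 and 238, and Cnn1 252 against 186 and 215. Acta2, smooth muscle actin, was bright on every array (8817, 7199 and 8698).

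Lists of tissues of the conceptus differed between the same arrays. By brightest probe set, all 16 yolk sac endoderm genes measured read higher in both mutant arrays and limma called 15 of them. Their median log2 ratio was 2.80, and their summed signal was 25888 on the normal array against 118684 and 129403. Those called were Apob, Apoa1, Apoa4, Afp, Ttr, Cubn, Amn, Fga, Fgb, Fgg, Rbp4, Hnf4a, Slc2a2, Cldn2 and Ctsl, with log2 ratios from 1.16 (Ctsl) to 3.85 (Apob), and Lrp2 did not pass. The kept probe sets of Ctsl and those of Lrp2 differed in sign, with means of 0.32 and 0.86. Trophoblast genes had a median of 1.53 over 10 kept of 13 measured, and limma called 3 higher, with a summed signal of 3759 against 10152 and 7719. These were the homeobox genes Rhox6 (log2 ratio 3.13), Rhox9 (2.47) and Esx1 (2.25), while Plac1 (1.76) did not pass. Of the 13 trophoblast genes measured, 9 read higher and 2 lower in both mutant arrays. The lower ones were Tpbpa (180 against 32.8 and 23.3), which the filter removed, and Cdx2 (1252 against 1184 and 494). The 14 endothelial genes had a median of 0.34 and 0 calls, with 5 higher and 0 lower at an unadjusted limma p under 0.05. Pecam1 (1.06), Cdh5 (1.02), Sox7 (0.87) and Erg (0.81) had the largest values in the less changed array. In both mutant arrays, 10 of the 14 read higher and 2 lower. The lower ones were Egfl7 (log2 ratio -0.05) and Plvap (1095 against 435 and 747, log2 ratio -0.90). Genes of the embryo proper (heart, neural tube, somites), which check the labelled tissue, read above 31.92 on every array. The lowest signal was 54.8, for Hes7 on mutant array 2. Of the 17 genes, 15 read lower in both mutant arrays, with a median of -0.94. Limma called 0 of these, with 12 lower and 0 higher at an unadjusted p under 0.05, with Fgf8 at -1.71, Hes7 at -2.03, Tbx5 at -1.45 and Otx2 at -1.34, and their summed signal was 27469 against 13712 and 17865. The summed signal of the 6 decidual genes was 3982 against 906 and 889. No gene of any list was listed at 0. Every array was scaled to the same trimmed mean, so the readings are relative to the rest of the array. The part of scaling and of tissue makeup in the decidual values was not tested.

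**Figure D3:**
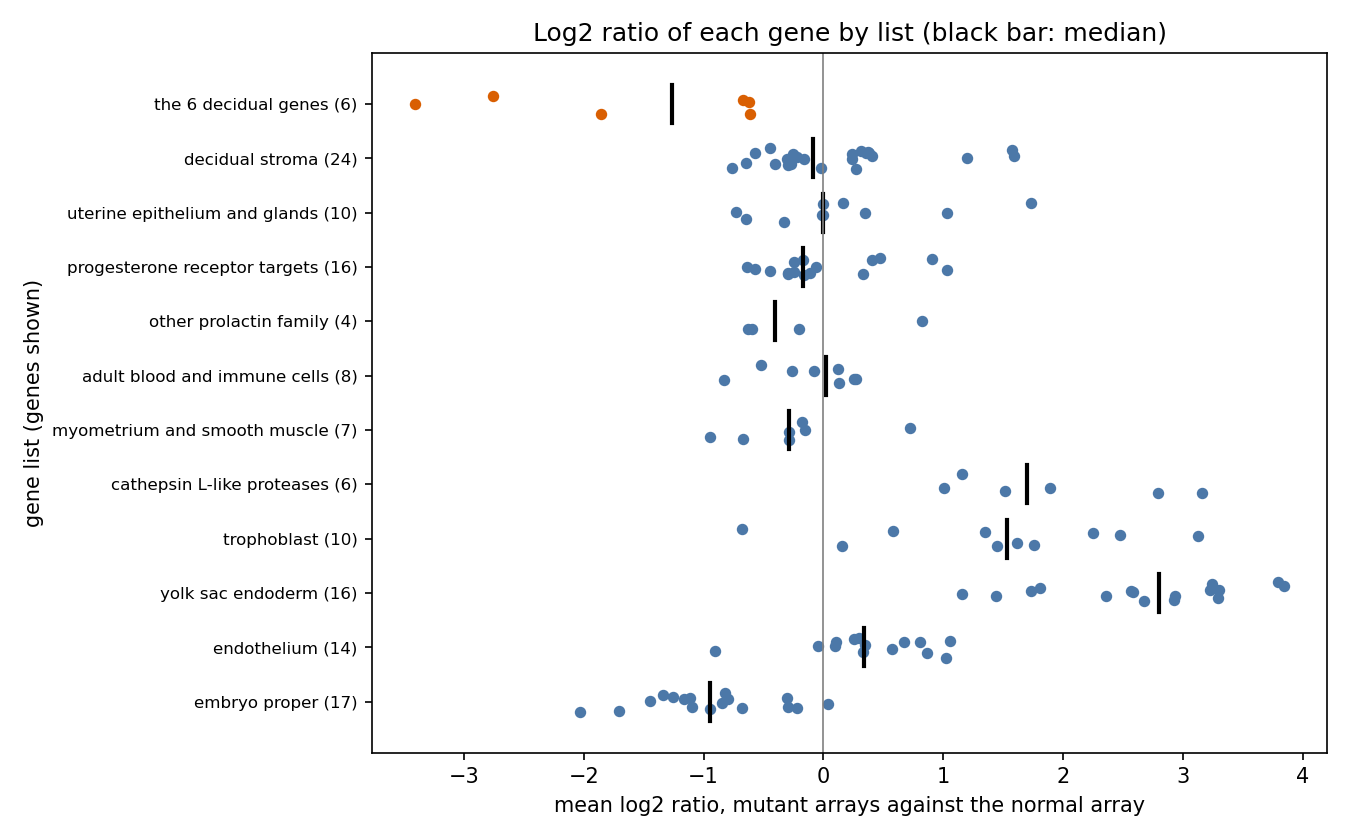
Mean log2 ratio of the 2 mutant arrays against the normal array (x axis) for each gene of 12 lists (y axis, with the number of genes shown); each point is the brightest probe set of 1 gene, kept by the filter except in the top row, where all 6 decidual genes are shown, and black bars are medians. The decidual stroma list centres at -0.09 and the uterine epithelium list at -0.0037, whereas yolk sac endoderm centres at 2.80 and the embryo proper at -0.94.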

How the data were processed

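The authors' deposited values are linear intensity readings, and GCOS and MAS5 are named, without version or setting, in the submitters' processing notes. Per the labels' protocols, Trizol was used for extraction and 3 µg of RNA for labelling. All arrays had a mean of 500 once 2% of values was trimmed from both ends. The file held 45101 probe sets, of which 64 were Affymetrix controls and left out; of the others the platform annotation gives 34945 a single symbol and 932 several, and does not list 9160. The limma model (version 3.58.1, R 4.3.3, lmFit and eBayes with an intensity trend) took all 3 arrays on the log2(signal + 31.92) scale. Tests were two-sided, with Benjamini-Hochberg adjustment over the 27022 probe sets kept and a threshold of 0.05. The 2 mutant arrays gave 1 residual degree of freedom, to which 4.52 prior degrees were added. The spread of normal pools was taken to be that of mutant pools, and p-values cover only the spread between these pools. Each gene on a list stood for its brightest probe set among those kept, and each decidual gene for its brightest of all. The members and lists were chosen with earlier results of these data known. Named genes were up to 4 of each list with the largest change in the less changed mutant array and any that passed limma. Genes named beyond this were chosen after their values were seen, for known roles, chromosomal place or signal. Promoter windows were aligned with Biopython 1.88. The fit was tested on simulated data of the same contrast (27022 probe sets, 200 with a log2 change of 3), and 99.2% were recovered, beside a mean of 12.8 false calls in each simulation. The simulated noise was normal, with 1 spread for all probe sets of like brightness. Smaller changes were not simulated, so this recovery does not tell how often the fit would call them. Alternatives were other added values, scalings, filters, probe set rules and variance models, and leaving out each mutant array. The number of arrays limits the precision.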

Additional observations from a re-analysis of the deposited data

How the results depend on the processing

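Each of the 6 decidual genes kept a log2 ratio below 0 under the 10 other settings tried for it. The genes were chosen for lower mutant signals, so nothing is read from this sign. The settings of the filter and the mean of kept probe sets left the values of these genes unchanged. Leaving out 1 mutant array returned the ratio of the other. Prl8a2 ranged from -3.57 to -3.13, Prap1 from -3.14 to -2.29, Ctla2a from -1.93 to -1.78, Ctla2b from -0.79 to -0.56, Pgr from -0.66 to -0.53 and Prl3c1 from -0.86 to -0.39. The median over the 6 genes was -1.26 and became -1.37 with an added value of 15.96, and it was -1.21 and -1.36 with 1 mutant array left out. Limma's calls over all probe sets, 8 lower and 148 higher, became 24 and 263 with median centring and 20 and 294 genes with the mean of kept probe sets, and 0 and 0 both without the filter on dim probe sets (2451 lower and 2423 higher at an unadjusted p under 0.05) and without the trend (1814 and 1641). At an unadjusted p under 0.05, 1853 lower and 1811 higher became 1457 and 2185 with median centring. The 1 uterine epithelium call, Ttr, was lost (0) without the filter and without the trend, and the decidual stroma list gained 1 call with the mean of kept probe sets. The cause of these shifts was not tested. The decidual stroma median ranged from -0.20 to 0.24 and that of the uterine epithelium from -0.16 to 0.20, so neither list has a settled sign. The prolactin family median ranged from -0.47 to -0.17, and no gene of that list was left at the 60th percentile filter. The immune lists' median ranged from -0.13 to 0.25. With 1 mutant array left out there are no residual degrees of freedom, so no calls were made. No paired analysis was possible because the labels give no pairs and the normal group was 1 array.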
